A study of Rattus norvegicus with 9 samples.

Results

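The 44 genes described here sense DNA damage, carry its signal or repair it. They were taken as a listed set, by symbol or synonym, and matched to the array probes through the RefSeq transcript named for each probe. By this match 37 of the 44 had at least 1 probe, 46 probes in all out of 41012 on the array, and 35 had a probe that could be tested. Atr, Lig3, Ddb1, Ddb2, Ercc5, Msh6 and Tp53bp1 had no probe by this match and were not analysed here. The probes of Brca1 and Rad51c were above background on 0 of 9 arrays and were not tested.

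Liver RNA of male Wistar rats was compared in 3 groups of 3 samples, with 1 one-colour Agilent array per sample. Control rats were not irradiated. TBI rats received total-body gamma irradiation from a cobalt source, 6.5 Gy at 2 Gy/min, and HSC + TBI rats received the same exposure after Hong Shan Capsule (HSC), a Chinese herbal preparation given into the stomach on 3 consecutive days. Livers were taken 24 h after exposure. The sample labels give the HSC dose as 30 mg/kg/day and the series design as 10 g/kg/day, the age of the rats was not given in the sources used here, and no sample of HSC without irradiation was analysed here. The labels number the samples of a group but do not say whether each was 1 animal, so the p-values below measure only the spread between these samples.

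A liver cell meets DNA breaks and damaged bases with separate pathways. Breaks are detected by the Mre11-Rad50-Nbn complex and signalled by the kinases Atm, Atr, Chek1 and Chek2. Non-homologous end joining, with the Ku proteins, the kinase Prkdc and ligase Lig4, rejoins the ends in any phase of the cell cycle, while homologous recombination copies a sister chromatid and works mainly in dividing cells, which are few in adult liver. Damaged bases are removed by base excision repair, bulky lesions by nucleotide excision repair and mispaired bases by mismatch repair, and Mgmt takes alkyl groups off guanine directly.

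All levels below are log2 of the normalized spot signal, and all differences are differences of group means on that log2 scale, tested with limma over 25369 probes with Benjamini-Hochberg adjustment. A gene was said to have risen or fallen only at an adjusted p under 0.05 and at least 1.5-fold change. Each gene was read from its brightest tested probe, and levels of different genes were not compared. The arrays held 56.6% to 59.3% of probes above background in control, 63.6% to 69.5% in TBI and 58.7% to 60.5% in HSC + TBI, so TBI arrays showed more probes above background than the others. The control arrays came from 1 slide, the TBI arrays from another and the HSC + TBI arrays from 2 further slides. No slide held more than 1 group, so slide and group cannot be told apart in any of the comparisons. All 8 hepatocyte markers were above background on all 9 arrays. Cdkn1a and Mdm2, 2 targets of p53 read as a check of the exposure, rose in both irradiated groups, Cdkn1a by 5.37 in TBI and 4.88 in HSC + TBI, and Mdm2 by 0.96 and 1.24.

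In TBI against control, 7 of 35 tested genes passed (20%), where 7.79% of the 9604 named genes on the array did. The 3 that rose were Mgmt, the end-joining factor Nhej1 and the end-joining kinase Prkdc, where 3.87% of named genes rose. The 4 that fell were Rad54l of homologous recombination, the break sensor Rad50, the checkpoint kinase Chek2 and Xpc of nucleotide excision repair, where 3.92% of named genes fell. Of the 28 that did not pass, 13 had a 95% interval within 1.5-fold of control in both directions. In whole-liver RNA, fewer cells of a type and less RNA per cell cannot be told apart.

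In HSC + TBI against control, 4 of 35 passed (11.4%), beside 3.88% of all named genes. Mgmt and Nhej1 rose, beside 1.18% of named genes, and Rad54l and Xpc fell, beside 2.71%. This comparison uses the same 3 control samples as the first, so the 2 sets of values are not independent and are given side by side only. In HSC + TBI against TBI, 0 of 35 passed by limma, beside 0.791% of all named genes, and 5 of 35 were under an unadjusted p of 0.05, beside 15% of all named genes. By the F-test over the 3 groups, 7 of 35 differed, beside 7.51%.

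The set as a whole lay slightly below control in TBI. Its median difference was -0.20, beside 0.01 for all named genes, and 27 of 35 genes lay below 0, beside 49.4% of all named genes. The median size of the difference, without its sign, was 0.30 beside 0.23. The groups did not overlap for 15 of the 35, beside 29.9% of all named genes, and 12 were under an unadjusted p of 0.05, beside 26.1%. In HSC + TBI against control the median was -0.04 beside 0.02, with 18 of 35 genes below 0 (47.4% of all named genes), 16 without overlap (34.5% of all named genes) and 11 under an unadjusted p of 0.05 (21.9%).

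**Figure D1:**
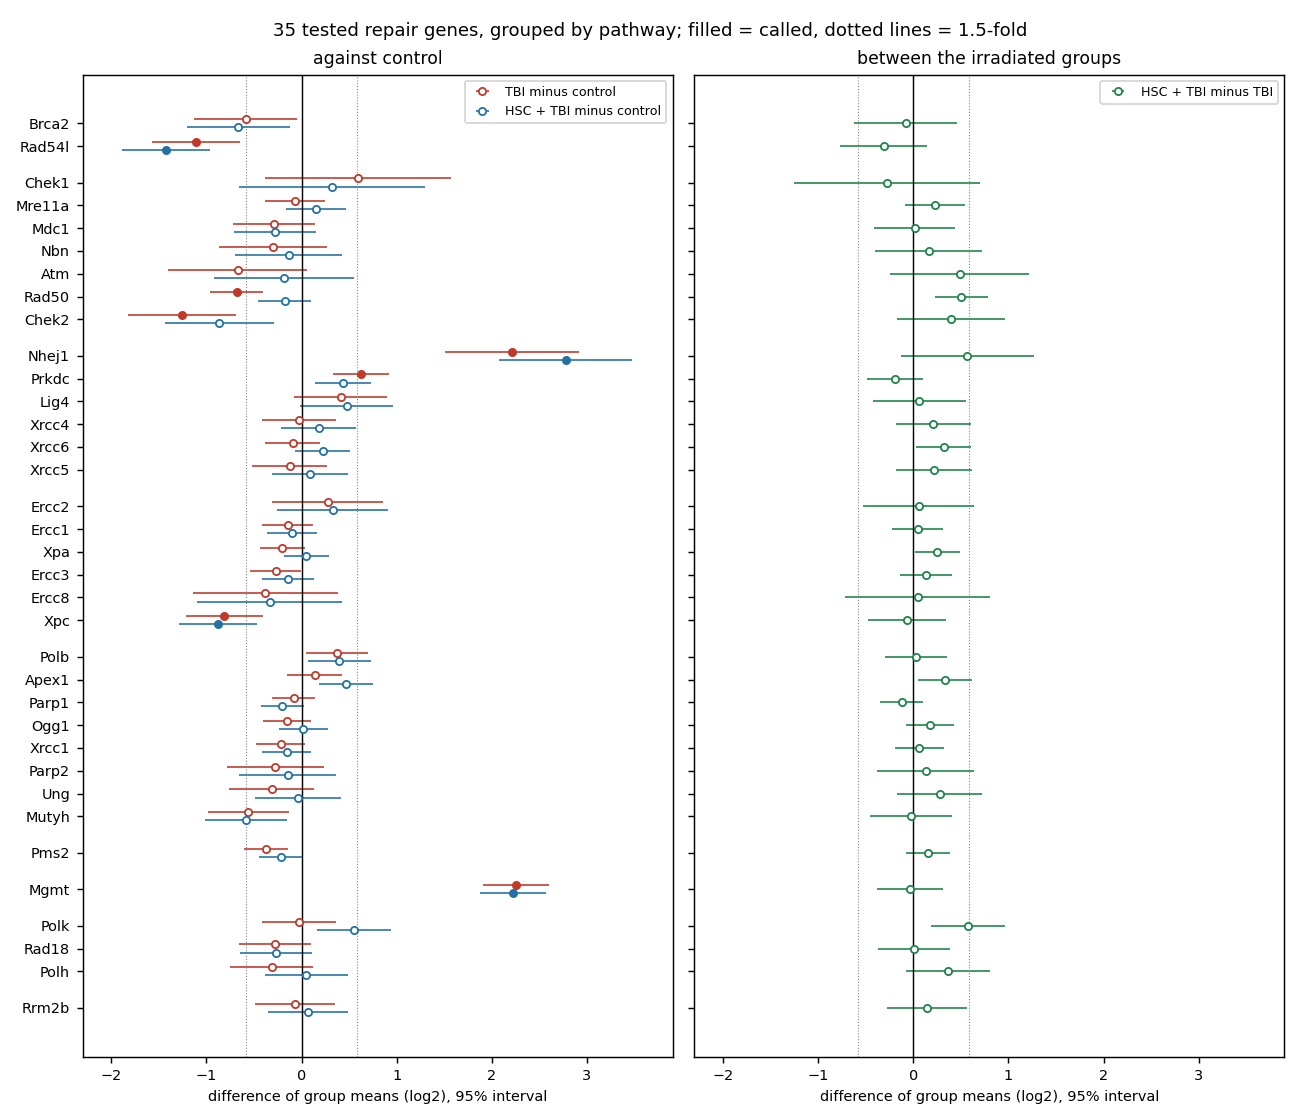
Differences of group means for the 35 tested genes, ordered by pathway, on the log2 scale with 95% intervals from limma. The left panel shows TBI and HSC + TBI against control and the right panel HSC + TBI against TBI. Filled points passed the test and the dotted lines mark a 1.5-fold change. Mgmt and Nhej1 lie beyond 2 to the right of 0, and no point of the right panel is filled. Polk was above background only on the TBI arrays.

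The promoters of the 4 genes that passed in HSC + TBI against control are shown for the reader to set beside the values, because a pair of them rose and a pair fell. Each is the stretch from 250 bases before to 50 bases after a transcription start in the RefSeq annotation of GRCr8. They lie at chr1:201140582-201140881, plus strand (Mgmt), chr9:84070768-84071067, minus strand (Nhej1), chr5:134841722-134842021, minus strand (Rad54l) and chr4:125578035-125578334, minus strand (Xpc). Capitals mark a GC box (GGGCGG, or CCGCCC on the other strand) and, in Rad54l, a CCAAT box.
Mgmt: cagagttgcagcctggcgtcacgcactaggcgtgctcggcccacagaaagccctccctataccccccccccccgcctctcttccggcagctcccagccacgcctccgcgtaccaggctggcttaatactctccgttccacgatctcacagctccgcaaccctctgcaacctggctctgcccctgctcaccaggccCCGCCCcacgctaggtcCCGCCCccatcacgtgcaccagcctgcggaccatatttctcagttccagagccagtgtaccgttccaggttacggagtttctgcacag
Nhej1: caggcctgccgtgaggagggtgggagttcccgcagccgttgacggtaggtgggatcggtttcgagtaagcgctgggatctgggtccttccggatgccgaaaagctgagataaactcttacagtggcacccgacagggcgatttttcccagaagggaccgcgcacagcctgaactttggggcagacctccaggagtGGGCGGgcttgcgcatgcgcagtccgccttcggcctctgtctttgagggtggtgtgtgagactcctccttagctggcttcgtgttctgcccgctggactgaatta
Rad54l: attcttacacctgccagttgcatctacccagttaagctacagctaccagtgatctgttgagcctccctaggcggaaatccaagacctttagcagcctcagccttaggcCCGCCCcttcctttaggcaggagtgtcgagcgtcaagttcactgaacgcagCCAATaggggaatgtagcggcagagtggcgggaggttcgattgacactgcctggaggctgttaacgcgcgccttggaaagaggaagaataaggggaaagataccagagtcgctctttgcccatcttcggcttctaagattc
Xpc: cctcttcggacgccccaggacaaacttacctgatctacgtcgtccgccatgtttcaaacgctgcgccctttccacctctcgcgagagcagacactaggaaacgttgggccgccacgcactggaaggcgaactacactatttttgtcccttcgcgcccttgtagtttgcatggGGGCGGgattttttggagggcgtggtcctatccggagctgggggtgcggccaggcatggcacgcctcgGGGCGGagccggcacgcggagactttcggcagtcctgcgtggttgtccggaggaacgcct

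All 4 stretches held a GC box, the element bound by Sp1-type factors. Of the 35 tested genes 28 had a promoter in the table, and a GC box was in 21 of them (75%), beside 34.9% of 27456 rat promoters of the same length. Those 27456 were not limited to genes tested on the array, so all shares here set unlike groups side by side. The repair promoters were also richer in G and C, with a median of 61% beside 52.3%. A CCAAT box was in 10 (35.7%, beside 37.7%), and a p53 half-site in 2, Mutyh and Rad50 (7.14%, beside 7.89%), where the half-site of Rad50 ran into a GC box by 1 base. An E2F site, searched as TTTGGCGC, TTTCGCGC, TTTGCCGC or TTTCCCGC, was in 4, Atm, Chek1, Polk and Ung (14.3%, beside 2.25%). TTTGAA, the cell cycle homology region, was in 3 of the 28, one of them Xpc, beside 18.1% of all promoters. All motifs were searched on both strands, and a match describes the letters of the window and not a bound site.

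Direct reversal was represented by Mgmt alone (NCBI Gene 25332), the methyltransferase that moves an alkyl group from guanine to itself and is used up in doing so. Its level was 11.57, 12.01 and 11.79 in control, 14.05, 14.19 and 13.89 in TBI, and 14.00, 14.16 and 13.87 in HSC + TBI. Every irradiated sample lay above every control sample by more than the spread of either group. The rise was 2.26 (SE 0.15) in TBI, or 4.77-fold (adjusted p = 2.09e-04), and 2.22 in HSC + TBI, or 4.66-fold (adjusted p = 2.86e-04). HSC + TBI differed from TBI by -0.03, with a 95% interval of -0.38 to 0.31 (adjusted p = 0.931). Mgmt passed in both comparisons under each of the 13 other settings run and with any 1 sample left out.

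Non-homologous end joining was measured through 6 genes. Nhej1 and Prkdc rose in TBI, and Nhej1 rose in HSC + TBI. Nhej1 (NCBI Gene 363251) encodes XLF, which bridges broken ends with Xrcc4 before ligation. Its level on the brighter probe was 5.39, 5.32 and 5.50 in control, 7.55, 7.32 and 7.98 in TBI, and 8.93, 7.69 and 7.93 in HSC + TBI, with the first HSC + TBI sample the highest of the 9. The irradiated and control samples did not overlap. The rise was 2.21 (SE 0.31), or 4.63-fold, in TBI (adjusted p = 0.00531) and 2.78, or 6.86-fold, in HSC + TBI (adjusted p = 0.00276).

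The size of that rise depended on the probe. On the second probe of Nhej1, also above background on all 9 arrays, levels were 4.40, 4.41 and 4.35 in control, 4.45, 4.81 and 5.05 in TBI, and 5.11, 4.77 and 5.05 in HSC + TBI. The groups again did not overlap with control, but the differences were 0.39 (adjusted p = 0.195) and 0.59 (adjusted p = 0.0997) and neither passed. The mean of both probes rose by 1.30 in TBI (adjusted p = 0.0107) and 1.69 in HSC + TBI (adjusted p = 0.00536), and after normexp background correction the main probe rose by 1.01 and 1.41. Which of the probes follows the Nhej1 transcript better was not tested.

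Prkdc (NCBI Gene 360748), the catalytic kinase recruited to broken ends by Ku, had a level of 6.43, 6.44 and 6.31 in control, 6.83, 6.97 and 7.24 in TBI, and 6.83, 6.77 and 6.86 in HSC + TBI. All irradiated samples lay above all controls. The rise in TBI was 0.62 (SE 0.13), or 1.54-fold, just past the minimum (adjusted p = 0.0231), and the difference in HSC + TBI was 0.43 (adjusted p = 0.112). HSC + TBI against TBI gave -0.19, with an interval of -0.48 to 0.10 (adjusted p = 0.507). The call in TBI was lost without control 1, control 2, control 3 or TBI 2, where the adjusted p was 0.0579, 0.0597, 0.0834 and 0.0558, and without TBI 3, where the difference was 0.51. After normexp background correction it was 0.29 (adjusted p = 0.0634), with only control and TBI in the fit the adjusted p was 0.0704, and with the mean of the 2 tested probes it was 0.185. A second, dimmer probe of Prkdc gave 0.43 in TBI (adjusted p = 0.512), with overlapping groups, and was above background on 8 of 9 arrays.

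The other 4 end-joining genes did not pass in any comparison. Xrcc5 and Xrcc6, the Ku subunits that load on a broken end, differed from control by -0.13 and -0.09 in TBI and by 0.09 and 0.22 in HSC + TBI. Xrcc4, the scaffold of the ligase, differed by -0.03 and 0.18. Lig4, the ligase itself, differed by 0.41 (adjusted p = 0.273) and 0.47 (adjusted p = 0.27).

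**Figure D2:**
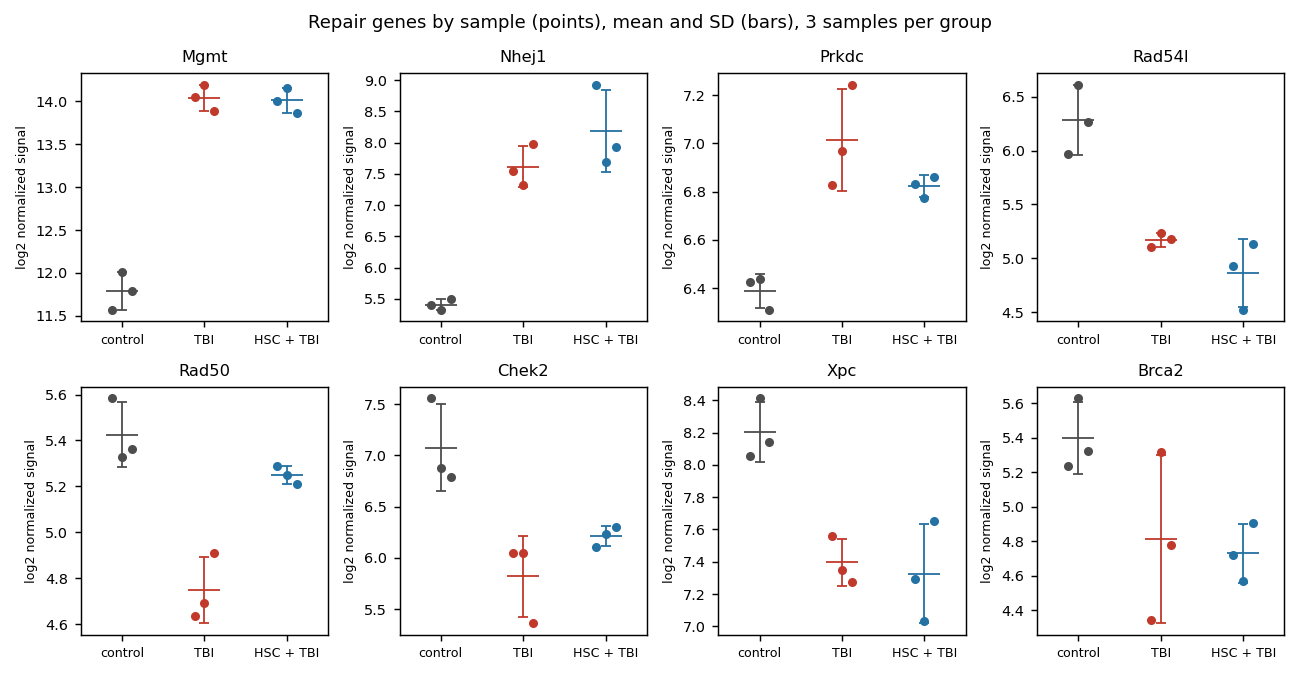
Log2 normalized signal of 8 repair genes in each of the 9 samples (points), with the group mean and SD (bars, 3 samples per group). Each panel has its own axis. For the first 7 genes the TBI points lie wholly above or wholly below the control points. Brca2 was shown because its HSC + TBI samples lie wholly below control, although it did not pass the test.

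Homologous recombination was represented by 2 tested genes, Rad54l and Brca2. Rad54l (NCBI Gene 298429), a motor protein that helps the broken strand to invade the sister chromatid, had a level of 5.97, 6.62 and 6.27 in control, 5.11, 5.23 and 5.18 in TBI, and 4.93, 4.52 and 5.14 in HSC + TBI. The groups did not overlap with control. Rad54l fell by 1.11 on the log2 scale, or 2.16-fold, in TBI (SE 0.20, adjusted p = 0.0149) and by 1.42, or 2.68-fold, in HSC + TBI (adjusted p = 0.00833). Between the irradiated groups it differed by -0.31, with an interval of -0.77 to 0.15. The call in TBI was lost without control 3 (difference -1.12, adjusted p = 0.052), and both calls were lost after normexp background correction, where the differences were -0.34 and -0.42, under 1.5-fold.

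Brca2, the breast cancer susceptibility protein that works in strand exchange, had a level of 5.23, 5.63 and 5.32 in control, 4.34, 5.31 and 4.78 in TBI, and 4.72, 4.57 and 4.91 in HSC + TBI. One TBI sample, at 5.31, lay within the control range, and the HSC + TBI samples lay below it. The differences of -0.59 in TBI (adjusted p = 0.169) and -0.67 in HSC + TBI (adjusted p = 0.171) did not pass.

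Break sensing and checkpoint signalling held 7 tested genes, of which Rad50 and Chek2 fell in TBI and none passed in HSC + TBI. Rad50 (NCBI Gene 64012), the long coiled-coil subunit of the sensor complex, had a level of 5.59, 5.33 and 5.36 in control, 4.64, 4.69 and 4.91 in TBI, and 5.29, 5.25 and 5.21 in HSC + TBI. The TBI samples lay below all others, and the HSC + TBI samples lay just under the lowest control. Rad50 fell by 0.68, or 1.60-fold, in TBI (SE 0.12, adjusted p = 0.0145), and its difference in HSC + TBI was -0.18 (adjusted p = 0.476). HSC + TBI exceeded TBI by 0.50, with an interval of 0.22 to 0.78. That difference had the lowest adjusted p of the 35 genes in this comparison, 0.109, and did not pass. The call in TBI was lost after normexp background correction (-0.23, under 1.5-fold) and with only control and TBI in the fit (adjusted p = 0.0527).

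The partners of Rad50 in the complex did not pass. Mre11a, its nuclease, differed from control by -0.07 in TBI and 0.15 in HSC + TBI, and Nbn, the subunit that recruits Atm, by -0.30 and -0.14.

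Chek2 (NCBI Gene 114212), the kinase that Atm activates after a break, had a level of 7.56, 6.88 and 6.79 in control, 6.05, 6.05 and 5.36 in TBI, and 6.10, 6.24 and 6.30 in HSC + TBI. All irradiated samples lay below all controls. Chek2 fell by 1.26, or 2.39-fold, in TBI (SE 0.25, adjusted p = 0.0205). The difference in HSC + TBI was -0.86 (adjusted p = 0.106), and HSC + TBI against TBI gave 0.39, with an interval of -0.18 to 0.96 (adjusted p = 0.48), which did not pass. The call in TBI was lost with only control and TBI in the fit (adjusted p = 0.0599), and after normexp background correction Chek2 fell by 0.64.

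Atm, the kinase at the head of the break response, did not pass. On its main probe the level was 4.43, 4.45 and 5.51 in control, 3.92, 4.63 and 3.81 in TBI, and 4.44, 4.77 and 4.63 in HSC + TBI, where control 3 stood about a unit above the other controls. The differences were -0.67 (adjusted p = 0.233) and -0.18 (adjusted p = 0.806). Its other probe gave -1.12 in TBI with no overlap (adjusted p = 0.0768). Chek1, the kinase of stalled replication forks, had a level of 5.45, 5.78 and 7.39 in TBI, beside 5.50 to 5.76 in control and 5.78 to 6.15 in HSC + TBI. Its TBI difference of 0.60 (adjusted p = 0.42) rested on TBI 3. Mdc1, the adaptor that binds phosphorylated histone at breaks, differed by -0.29 and -0.28.

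**Figure D3:**
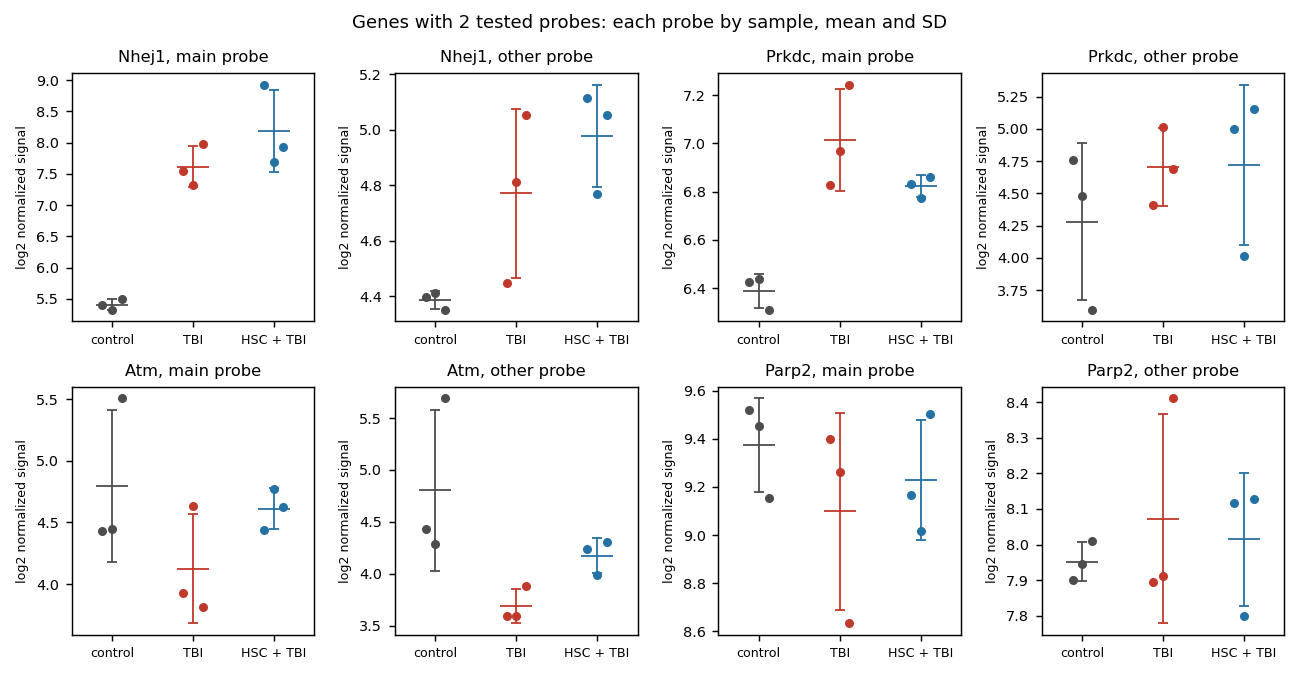
Log2 normalized signal in each sample for the main and the other tested probe of Nhej1, Prkdc, Atm and Parp2, with group mean and SD (3 samples per group). Each panel has its own axis. The rise of Nhej1 is about 2 units on the main probe and under 1 unit on the other, and control 3 is the highest sample on both Atm probes.

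Nucleotide excision repair, which cuts out bulky lesions as a short oligonucleotide, was measured through 6 genes, and Xpc was the 1 that passed. Xpc (NCBI Gene 312560), the sensor that finds the distorted helix, had a level of 8.06, 8.42 and 8.14 in control, 7.56, 7.35 and 7.27 in TBI, and 7.30, 7.03 and 7.65 in HSC + TBI. All irradiated samples lay below all controls. Xpc fell by 0.81, or 1.75-fold, in TBI (SE 0.18, adjusted p = 0.03) and by 0.88, or 1.84-fold, in HSC + TBI (adjusted p = 0.0371). The direction held with any 1 sample left out, but the call in TBI was lost without control 1, control 2, control 3, TBI 2, TBI 3 or HSC + TBI 1, with adjusted p from 0.0524 to 0.0919. The call in HSC + TBI was lost without control 1, control 2, control 3, TBI 2, HSC + TBI 1 or HSC + TBI 2, with adjusted p from 0.0541 to 0.132. After normexp background correction the differences were -0.54 and -0.55, under 1.5-fold. The call in HSC + TBI was also lost with no filter on dim probes (adjusted p = 0.069) and with only the 2 groups in the fit (adjusted p = 0.0525).

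The other 5 genes of the pathway did not pass. Ercc1, a subunit of the nuclease that cuts before the lesion, differed by -0.15 in TBI and -0.10 in HSC + TBI. Xpa, which checks the lesion, differed by -0.20 and 0.05. The helicases Ercc2 and Ercc3, which open the helix, differed by 0.27 and -0.27 in TBI, and by 0.33 and -0.14 in HSC + TBI. Ercc8, which acts when a transcribing polymerase is blocked, had 3 tested probes, and the main one gave -0.38 and -0.33. The others gave -0.11 and -0.40 in TBI, and 0.18 and -0.30 in HSC + TBI.

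Base excision and single-strand break repair held 8 tested genes, and 0 of them passed by limma in any comparison. Those under an unadjusted p of 0.05 were 2 in TBI, 3 in HSC + TBI and 1 between the irradiated groups. The shares of all named genes there were 26.1%, 21.9% and 15%. Parp1, which binds single-strand breaks and marks them with poly(ADP-ribose), differed by -0.08 in TBI, with an interval of -0.31 to 0.14, and by -0.20 in HSC + TBI. Xrcc1, the scaffold of single-strand repair, differed by -0.22 and -0.16, and Ogg1, the glycosylase for oxidized guanine, by -0.15 and 0.02. These intervals lay within 1.5-fold of control in TBI.

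Polb, the polymerase that fills the gap, stood above control in every irradiated sample. Its level was 7.29, 7.19 and 7.11 in control, 7.61, 7.67 and 7.43 in TBI, and 7.70, 7.76 and 7.33 in HSC + TBI, with differences of 0.37 (adjusted p = 0.151) and 0.40 (adjusted p = 0.175). Apex1, which nicks the DNA after the base is gone, gave 0.14 in TBI and 0.47 in HSC + TBI (adjusted p = 0.0853), and passed in HSC + TBI where arrays were scaled by their 75th percentile (0.61, adjusted p = 0.0379). Mutyh, the glycosylase that removes adenine opposite oxidized guanine, lay just inside 1.5-fold, at -0.56 (adjusted p = 0.109) and -0.58 (adjusted p = 0.137). Parp2 and Ung, the uracil glycosylase, gave -0.28 and -0.31 in TBI and -0.15 and -0.04 in HSC + TBI. The other tested probe of Parp2 went the other way, at 0.12 in TBI and 0.06 in HSC + TBI.

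The remaining pathways were thinly covered and 0 of their 5 tested genes passed by limma. In TBI 1 of them, Pms2, was under an unadjusted p of 0.05, beside 26.1% of all named genes. In HSC + TBI against control and against TBI the 1 such gene was Polk, beside 21.9% and 15%. Pms2, which nicks the new strand in mismatch repair, had a level of 8.03, 7.98 and 7.95 in control, 7.74, 7.56 and 7.56 in TBI, and 7.80, 7.75 and 7.76 in HSC + TBI. The 3 groups did not overlap, with TBI lowest, and the differences were -0.37 (adjusted p = 0.061) and -0.22 (adjusted p = 0.278). Rad18, the ligase that marks the clamp at stalled forks, gave -0.28 and -0.27, and the translesion polymerase Polh -0.31 and 0.05. Rrm2b, the ribonucleotide reductase subunit that supplies nucleotides for repair, gave -0.07 and 0.07. Polk was above background on the 3 TBI arrays only, although its mean level was lowest there. No fold is given for it, and its unadjusted p values are no support for a change.

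Between the irradiated groups the median size of the difference, without its sign, was 0.16 beside 0.17 for all named genes. This comparison uses the same TBI samples as TBI against control, so the values of both are not independent. The median of HSC + TBI minus TBI was 0.13, beside 0.02 for all named genes, and 8 of 35 genes lay below 0, beside 46.1% of all named genes. The groups did not overlap for 10 of the 35, beside 21.3% of all named genes. For 17 of the 35, the 95% interval of the difference lay within 1.5-fold in both directions, while for the other 18 it reached past 1.5-fold in at least 1 direction. Beside Polk, which was not above background on the HSC + TBI arrays, Rad50 at 0.50, Xrcc6 at 0.32, Apex1 at 0.33 and Xpa at 0.25 had intervals above 0 and adjusted p of 0.109, 0.266, 0.243 and 0.276.

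Further genes of the same pathways were read from a list of 94, of which 61 had a probe and 54 were tested. In TBI 4 of 54 passed (7.41%), beside 7.79% of all named genes, and in HSC + TBI 3 of 54 passed (5.56%), beside 3.88%. All of them were lower. In HSC + TBI against TBI 0 of 54 passed by limma, and 6 were under an unadjusted p of 0.05, beside 15% of all named genes. Of 27 listed genes of homologous recombination and the Fanconi pathway 10 had a probe and 8 were tested. Among these, 3 fell in TBI and 2 in HSC + TBI, beside 3.92% and 2.71% of all named genes.

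Bard1, the partner of Brca1, was above background on the 3 control arrays and on none of the 6 others, so it entered the test only through the group where it was high, and its p and its place in these counts are no independent support. It was at least 5.98-fold lower in TBI (adjusted p = 0.00364) and at least 3.42-fold lower in HSC + TBI (adjusted p = 0.0077), with the lowest above-background signal of each array as the floor. Rad51ap1, another recombination factor, fell by 1.19 and 1.38.

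Rad51d, of the same protein family as Rad51c, fell by 0.73 in TBI (adjusted p = 0.0226), and its difference in HSC + TBI was -0.16 (adjusted p = 0.606). HSC + TBI against TBI gave 0.57, which did not pass (adjusted p = 0.128). Lig1, the replicative ligase that also seals base excision patches, fell by 0.78 in TBI (adjusted p = 0.00794) and by 0.91 in HSC + TBI.

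Markers of dividing cells moved in the same direction as these genes. Of 12 such markers 10 had a probe and 9 were tested. In each irradiated group 7 fell and 1, Tyms, rose against control. Of all named genes 3.92% fell and 3.87% rose in TBI, and 2.71% fell and 1.18% rose in HSC + TBI. Of the 10 markers, 6 were above background on all 9 arrays. A marker dim on some arrays may have entered the test through the group where it was high, so these counts are no independent support. The summed linear signal of the 10 was 1538 to 2535 in control, 614 to 784 in TBI and 645 to 839 in HSC + TBI, with no overlap of either irradiated group with control. Rad54l, Bard1, Rad51ap1 and Lig1 were lower in the same samples, and the part of the dividing-cell markers in those falls was not tested.

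**Figure D4:**
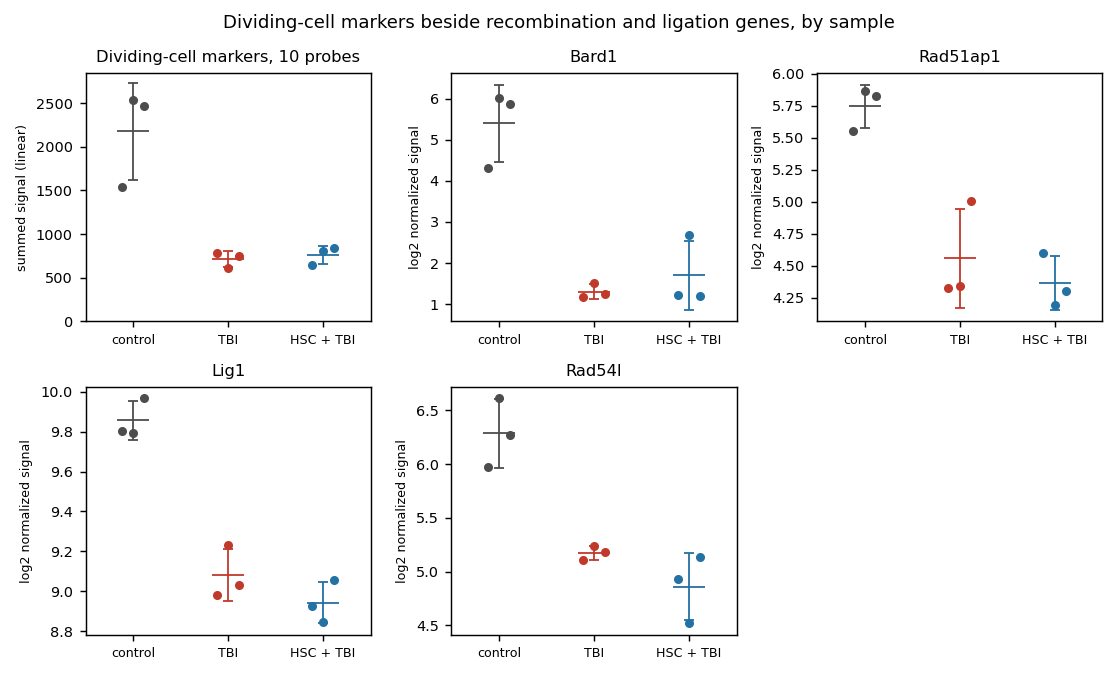
Summed linear signal of the 10 dividing-cell markers with a probe (first panel, axis from 0) and log2 normalized signal of Bard1, Rad51ap1, Lig1 and Rad54l in each sample, with group mean and SD (3 samples per group). All irradiated samples lie below all controls in every panel. Bard1 was not well above background on any irradiated array.

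Markers of blood, immune and endothelial cells also varied. The 8 T and natural killer cell markers summed to 1072 to 2115 in control, 656 to 1346 in TBI and 512 to 651 in HSC + TBI, with Cd3e and Cd5 not above background on any array. The 6 macrophage and Kupffer cell markers summed to 46408 to 66729, 46005 to 86203 and 32103 to 35120, so HSC + TBI lay below both other groups in each of these lists. B cell markers, 3 with a probe, summed to 194 to 210 in control, 165 to 286 in TBI and 123 to 136 in HSC + TBI, lowest in HSC + TBI. The 4 erythroid markers with a probe summed to 1820 to 4528, 1245 to 2568 and 984 to 1598, where HSC + TBI lay below control. The 4 endothelial markers with a probe summed to 12578 to 15507, 16603 to 20447 and 15372 to 17077, where TBI lay above control. The 5 stellate markers summed to 11334 to 13291, 7883 to 15826 and 9309 to 9567, where HSC + TBI lay below control. Neutrophil and cholangiocyte sums overlapped between each irradiated group and control. The 8 hepatocyte markers summed to 779697 to 843783, 691234 to 840655 and 767715 to 839995, with overlapping groups. A sum follows its brightest probes. In TBI 1 of 2 tested B cell, 1 of 6 T and natural killer cell and 1 of 5 stellate markers fell. Of the tested hepatocyte and erythroid markers 1 of 8 and 1 of 4 rose there, with erythroid differences from -1.30 to 1.53. Of all named genes 3.92% fell and 3.87% rose. In HSC + TBI 1 B cell and 1 T and natural killer cell marker fell, beside 2.71%. Above background on all 9 arrays were 1 of 3 B cell, 3 of 8 T and natural killer cell and 3 of 4 erythroid markers with a probe. A marker of these lists may have entered the test through the group where it was high. Its call is then no independent support. No macrophage, neutrophil, endothelial or cholangiocyte marker passed against control. The part of these cell types in the differences of the repair genes was not tested.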

How the data were processed

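Liver RNA of 9 samples was read on 9 one-colour arrays. Per the file headers, the authors extracted each spot's intensity with Agilent Feature Extraction 10.7.3.1, which gave raw, background and processed signals with quality flags. The authors also deposited 1 log2 value per probe, normalized by quantiles, which was used as an alternative.

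Here, outlier and control spots were left out (84 to 115 outlier spots per array, 0 saturated), the processed signal got a floor of 1 and was log2-transformed, quantile-normalized across arrays, with replicate spots averaged. The software's flag for signal well above background, on more than 0.5 of a probe's spots, defined detection on an array, and probes detected on all 3 arrays of 1 or more groups were tested. Group means were fitted in 1 model with limma 3.58.1 in R 4.3.3, for 3 comparisons and an F-test, with Benjamini-Hochberg adjustment over all 25369 tested probes. Genes were named through RefSeq transcripts (annotation of GRCr8). The fit was tested on simulated data. The number of arrays limits the precision.

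Values per sample are given for genes that passed in a comparison or the F-test, or that changed at least 1.5-fold without overlap of the groups, and for a few others picked after their values were seen (Atm, Chek1, Polb, Pms2). The members, further lists and tests were chosen with earlier results of these data known, and 1 gene of the further list and 1 marker are not reported here. Alternatives covered scaling, background correction, the filter, the probe of a gene, the fold minimum, outlier spots, the samples in the fit, the methods' t-test, replicate and slide blocks, and each sample left out.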

Additional observations from a re-analysis of the deposited data

How the results depend on the processing

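No call of a repair gene reversed under any alternative run, and of the single-gene values under the alternatives 42 lost their call, 8 gained one and the others stayed on their side of the threshold, though some sizes moved (Nhej1, Chek2). In TBI against control, where 7 passed, 3 passed after normexp background correction, whose offset of 50 shrinks differences of dim genes by construction, 4 with only the 2 groups in the fit, 1 with the methods' t-test and adjusted p, and 4 to 7 with 1 sample left out (4 without control 3), and 9 with slide as a random block, which added Brca2 and Atm. In HSC + TBI against control, where 4 passed, 2 passed after normexp, 1 with the methods' t-test and adjusted p, 5 after the 75th percentile shift (Apex1 added), and 6 with the slide block or the methods' t-test without adjustment (Brca2 and Chek2 added in each). The gene kept by the methods' t-test with adjusted p was Mgmt both times, and Nhej1 was lost there (adjusted p = 0.0532 and 0.0842) and under no other setting. Rad50, Chek2 and Prkdc were lost in TBI with only the 2 groups in the fit (adjusted p = 0.0527, 0.0599 and 0.0704). Xpc was lost in HSC + TBI with only the 2 groups in the fit (adjusted p = 0.0525) and with no filter (adjusted p = 0.069). In HSC + TBI against TBI, where 0 passed, 1 passed with slide as a random block (Polk, above background on the TBI arrays only), at an estimated slide correlation of -0.327. No slide held more than 1 group, so the slide block cannot separate slide from group. The calls it added, by limma or by the F-test, are no support for a change. The median difference of the genes moved to -0.12 in TBI and to 0.0667 in HSC + TBI against TBI after normexp, and to -0.10 in HSC + TBI against control with no filter. With 1 sample left out it ran from -0.21 to -0.14 in TBI (-0.14 without TBI 2) and from -0.0541 to 0.0202 in HSC + TBI against control (0.0202 without control 3). The F-test, which called 7, called 4 with no filter, 14 as an unadjusted analysis of variance, 21 with the slide block, and 3 to 7 with 1 sample left out. It called 3 with the replicate number as a block, where Prkdc in TBI (adjusted p = 0.051) and Xpc in TBI (0.0666) and HSC + TBI (0.0777) were also lost. Over all 9 same-number pairs r ran from -0.144 to 0.191, with 2 over 0.1. The control and TBI pairs gave 0.191, 0.117 and 0.0977, above their different-number pairs (-0.121 to 0.0171), a hint from the data and not the design, and the others -0.144 to 0.0146. Not every pair was over 0.1, and by that cut the numbers were taken as names only. Values of same-number and different-number pairs are not independent. Neither they nor the cut can settle whether control and TBI samples were paired. The cause of the other changes was not tested.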
